A study of Mus musculus with 55 samples.

Results

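Potassium channel genes were taken as the protein-coding genes whose mouse symbol starts with Kcn and whose level reached at least 1 CPM (gene counts scaled to library size) in at least 7 of 54 mice. The deposited tables held 94 protein-coding Kcn genes among 45318 gene identifiers, and 75 of the 94 met the level. RNA of the ventral dentate gyrus, the input region of the ventral hippocampus, had been sequenced from single male C57BL/6J mice. The mice were raised in standard housing (SH) or in an enriched environment (EE) from 21 days of age for 8 weeks and were then left unstressed (control) or put through 10 days of chronic social defeat stress (CSDS). Defeated mice were classed by their social interaction ratio, those above 1 as resilient (RES) and those below 1 as susceptible (SUS), and tissue was taken at 90 days of age. The groups were 10 SH control, 7 SH RES, 10 SH SUS, 9 EE control, 9 EE RES and 9 EE SUS mice. SH mice lived 3 to a cage and EE mice in groups of 12, so that cage mates were not fully separate units. RES and SUS are grades of 1 behavioral score and not separate treatments, and all defeated mice had met the same stressor.

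Potassium channels let potassium leave the cell and so set the resting potential, end the action potential and limit repeated firing. The pore-forming proteins fall into voltage-gated families (Kcna to Kcnd, Kcnh and Kcnq, with the silent partners Kcnf, Kcng, Kcns and Kcnv), inward rectifiers (Kcnj), tandem-pore leak channels (Kcnk), and channels opened by calcium (Kcnma, Kcnn) or sodium (Kcnt). Auxiliary subunits are named in the same series, among them Kcnab, Kcnip, Kcne and Kcnmb. Dentate granule cells are known for a very negative resting potential and sparse firing, to which A-type and inward rectifier currents contribute.

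The promoters of the 3 members that differed between EE and SH at an adjusted p below 0.05 by edgeR are shown first. In the main edgeR fit, with all mice and no added terms, no other member was called in any test. Kcnn1 encodes a small-conductance calcium-activated channel (SK1), Kcnd2 the A-type channel Kv4.2 of dendrites, and Kcnab1 a cytoplasmic beta subunit that speeds inactivation of Kv1 channels. Each window runs from 250 bases before to 50 after the RefSeq start site that lies closest to the start of the counted gene (GRCm38.p6). The windows are chr8:70863209-70863508 on the minus strand for Kcnn1 (1 of 2 start sites listed), chr6:21215096-21215395 on the plus strand for Kcnd2 (its 1 start site) and chr3:65108764-65109063 on the plus strand for Kcnab1 (1 of 3). Capitals mark any match on either strand to the letters searched, which were GGGCGG for the GC box, CCAAT for the box of that name, TATAAA for the TATA box and TGACG for the core of the cyclic AMP response element (CRE).
Kcnn1: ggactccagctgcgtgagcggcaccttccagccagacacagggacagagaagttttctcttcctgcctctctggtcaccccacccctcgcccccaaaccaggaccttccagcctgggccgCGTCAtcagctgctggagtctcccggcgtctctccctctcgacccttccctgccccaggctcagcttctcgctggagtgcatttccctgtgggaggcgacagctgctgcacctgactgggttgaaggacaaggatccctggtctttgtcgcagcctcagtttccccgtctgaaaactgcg
Kcnd2: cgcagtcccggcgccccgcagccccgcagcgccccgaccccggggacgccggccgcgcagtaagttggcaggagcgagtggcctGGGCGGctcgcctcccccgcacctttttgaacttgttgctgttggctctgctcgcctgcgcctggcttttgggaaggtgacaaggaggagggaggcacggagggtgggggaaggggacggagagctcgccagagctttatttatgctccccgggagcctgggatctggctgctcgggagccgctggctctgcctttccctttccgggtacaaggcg
Kcnab1: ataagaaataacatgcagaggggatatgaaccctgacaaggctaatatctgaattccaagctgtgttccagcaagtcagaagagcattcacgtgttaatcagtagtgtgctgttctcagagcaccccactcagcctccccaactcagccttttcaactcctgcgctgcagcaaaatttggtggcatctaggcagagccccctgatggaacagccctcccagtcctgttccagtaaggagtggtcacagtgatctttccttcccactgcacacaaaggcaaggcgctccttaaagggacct
The Kcnn1 window held a reverse-strand match to the CRE core, the Kcnd2 window a match to the GC box, and the Kcnab1 window none of these letters. Of all 32851 windows of this length in the table, 35.7% held the GC box, 37.4% the CCAAT box, 13.6% the TATA box and 20.8% the CRE core. Counted by gene, with a match in at least 1 of its windows, the shares of all 27025 genes were 38.2%, 41.1%, 15.7% and 23.0% in the same order. Among the 53 members with a listed window, 37 had the GC box, 20 the CCAAT box, 3 the TATA box and 14 the CRE core in at least 1 window. GC content was 62.3% for Kcnn1, 68.7% for Kcnd2 and 50.3% for Kcnab1, against a median of 52.7% over all windows. These matches describe letters only and were not tied to binding or to the differences below.

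Total gene counts ranged from 16760009 to 24426804 per mouse, apart from EE control mouse 9 with 45872357 counts from 2 summed runs. Kcn genes received between 0.394% and 0.474% of them. The markers of dentate granule cells were present in every mouse, with Prox1 between 79.6 and 210 CPM and C1ql2 between 63.0 and 163 CPM. Markers of nearby tissue were also found, since 6 thalamus genes summed to between 100.5 and 571 CPM and 6 choroid plexus genes to between 16.5 and 973 CPM per mouse. Most of the lowest thalamus sums was Rora and Plcb4, at 61.0 and 22.9 CPM or more in every mouse. Prkcd ran from 10.6 to 154 CPM, and Tcf7l2, Lef1 and Ramp3 had medians of 5.79, 4.26 and 4.05 CPM. The low end of the choroid plexus sums was nearly all Kl (15.5 CPM or more in every mouse), while the other five genes had medians of 0.112 to 0.391 CPM and Ttr, Folr1 and Clic6 were at 0 in some mice. Because whole tissue was sequenced, fewer cells of a type and less RNA per cell cannot be told apart in any value below.

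Of the 75 members, 68 reached 1 CPM in all 54 mice. The members spanned 20 of the 21 subfamilies, and the missing one was Kcnrg. Levels between genes are given as CPM per kb of exon, averaged over the 54 mice. On this scale the median member stood at 4.49. All protein-coding genes with any count had a median of 2.78. Only the members had been chosen by a level threshold, so a higher median among them was built in. The top was held by Kcnab2, a beta subunit of Kv1 channels, at 72.0, followed by the axonal delayed rectifier gene Kcna1 at 48.7, the leak channel gene Kcnk1 at 40.8, Kcnip2 at 39.9 and the G protein-gated rectifier gene Kcnj3 at 37.7. The 5 highest genes made up 32.9% and the 10 highest 50.8% of the summed level per kb of all Kcn genes. Transcripts were thus spread unevenly over the family.

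**Figure D1:**
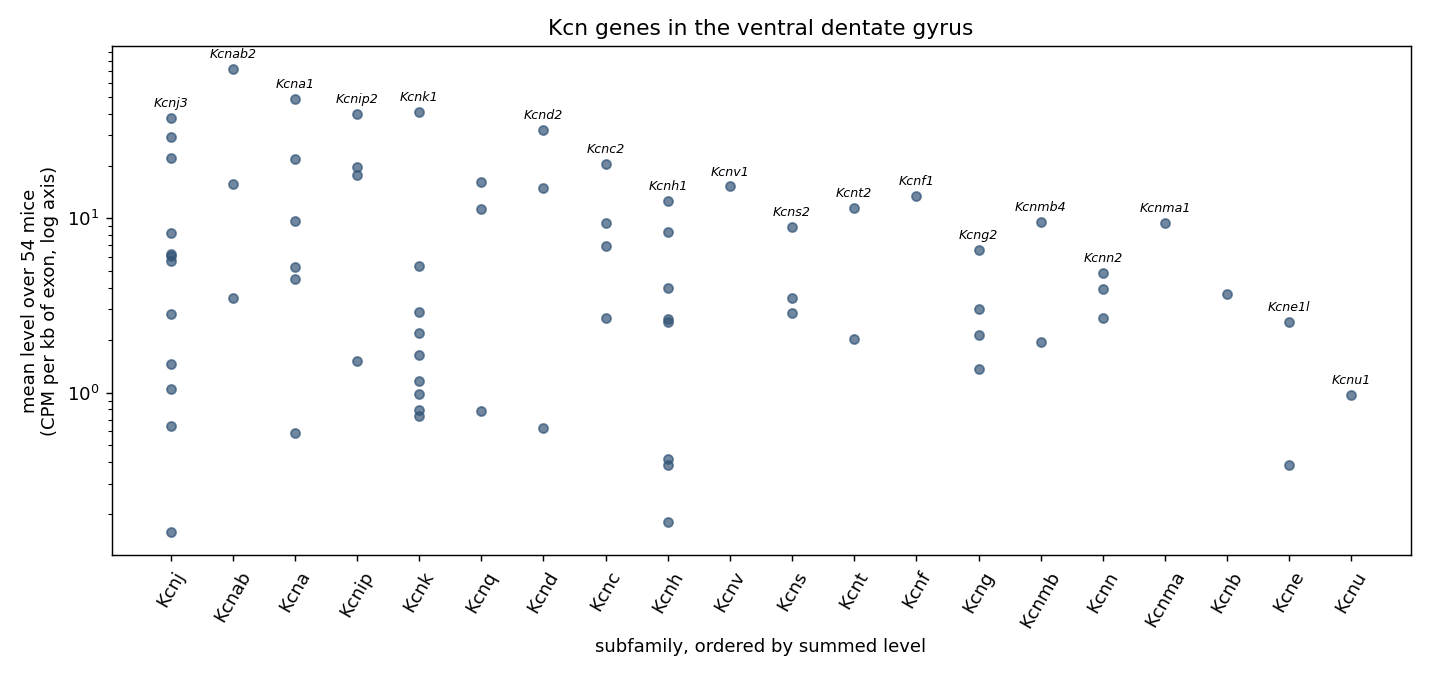
Mean level of 73 of the 75 members over the 54 mice, in CPM per kb of exon on a log axis, with 1 point per gene and the subfamilies ordered by their summed level. The gene with the highest level is named in each subfamily whose members are all plotted, from Kcnab2 at 72.0 down to Kcnu1 at 0.970.

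Inward rectifiers formed the largest share, with 16.8% of the Kcn level per kb from 12 members. Kcnj3 (37.7), Kcnj4 (29.3) and Kcnj9 (22.2) led this subfamily in CPM per kb. Kcnj9 and Kcnj10, a rectifier of astrocytes and oligodendrocytes at 8.20, lie 11.9 kb apart on chromosome 1. Beta subunits (Kcnab) held 12.5%, nearly all of it from Kcnab2 and from Kcnab1 at 15.8. The Kcna genes held 12.4%, and 3 of them, Kcna5, Kcna1 and Kcna6, lie in a row on chromosome 6 (126532551 to 126740674 of GRCm38), yet their levels of 0.583, 48.7 and 9.61 CPM per kb spanned a wide range. The Kv channel-interacting proteins (Kcnip) held 10.8%, with Kcnip2 at 39.9, Kcnip3 at 19.7, Kcnip4 at 17.7 and Kcnip1 at 1.51. Their partners in the A-type channel, the Kcnd genes, held 6.55%, led by Kcnd2 at 32.1 and Kcnd3 at 14.97.

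Leak channels (Kcnk) held 7.79% from 9 members, and Kcnk1 at 40.8 stood well above the next, Kcnk2 at 5.35. M-current genes (Kcnq) held 7.39%, with Kcnq5 at 16.3 and Kcnq3 at 11.3 among its members. Fast delayed rectifiers (Kcnc), known from fast-spiking neurons, held 5.43%, led by Kcnc2 at 20.5, and the Kcnh genes held 4.28%, led by Kcnh1 at 12.7. In other subfamilies the highest genes were Kcnv1 (15.3), Kcnf1 (13.5), Kcnt2 (11.5), Kcnmb4 (9.58), Kcnma1 (9.44), Kcns2 (8.91), Kcng2 (6.58), Kcnn2 (4.88), Kcne1l (2.55) and Kcnu1 (0.970), all in CPM per kb.

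At the level threshold, Kcnj5 was just inside with 1 CPM or more in 7 mice and a seventh highest value of 1.05 CPM, beside Kcnh8 with 9 mice and 1.06 CPM. Just outside were Kcnj13 (6 mice, 0.783 CPM) and Kcnrg (0 mice, 0.676 CPM). Of the 19 genes left out, 17 never reached 1 CPM, and Kcnk18 had 0 of 1183729471 gene counts, which allows up to 0.00253 CPM for counting error alone. The other two were Kcnj13 and Kcne2, a rectifier and an auxiliary subunit known from choroid plexus epithelium. Kcnj13 had a median of 0.195 CPM and a highest value of 9.83 CPM, and the 6 mice at 1 CPM or more were those with the 6 highest sums of choroid plexus markers (180 CPM or more, against at most 78.1 CPM in the other mice). Kcne2, with a median of 0.0505 and a highest value of 4.79 CPM, was at 1 CPM or more in the 5 mice with the highest sums.

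The first question was whether any Kcn gene differed among the 6 groups. None of the 75 did at an adjusted p below 0.05 (quasi-likelihood test of edgeR, adjusted over 18283 genes by the Benjamini-Hochberg method, background 0.35% of all genes). At an unadjusted p below 0.05 there were 18 members by edgeR (background 11.1%), 16 by limma and 18 by DESeq2. DESeq2 called Kcnc2 (adjusted p = 0.0261) and Kcng4 (adjusted p = 0.0450), and limma called none. The smallest edgeR value belonged to Kcnc2 (adjusted p = 0.111), followed by Kcng4 (0.144), Kcnn1 (0.155) and Kcnd2 (0.166).

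Housing was the contrast with calls. EE mice had more Kcnn1 RNA and less Kcnd2 and Kcnab1 RNA than SH mice over the 3 phenotypes, by small amounts. These were 3 of 75 members (4%), against 2.42% of all genes tested, or 0.881% higher and 1.54% lower in EE. Limma called the same 3 genes and DESeq2 called 6. A count of 3 lies close to that background.

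Kcnn1 (ENSMUSG00000002908, chromosome 8, 70842049 to 70863258 on the minus strand) had medians of 16.9 CPM (15.9 to 19.6), 16.3 (15.2 to 19.2) and 17.9 (16.3 to 21.1) in SH control, RES and SUS mice, with the lowest and highest mouse in parentheses. Its medians in EE control, RES and SUS mice were 17.98 CPM (16.002 to 22.02), 19.5 (17.7 to 21.03) and 19.2 (15.8 to 21.2). The EE median was the higher one in each phenotype, and the ranges overlapped. The mean was 18.9 ± 1.704 CPM (SD, n = 27) in EE and 17.5 ± 1.52 CPM (SD, n = 27) in SH, and 23 of 27 EE mice lay above the SH median. The log2 fold change was 0.12 (SE 0.033, edgeR adjusted p = 0.0391).

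Kcnd2 (ENSMUSG00000060882, chromosome 6, 21215503 to 21729805 on the plus strand) had medians of 172 CPM (155 to 196), 169 (161 to 175) and 169 (153 to 174) in SH control, RES and SUS mice. In EE control, RES and SUS mice its medians were 159 CPM (131 to 184), 157 (141 to 167) and 161 (152 to 183). All 3 EE medians lay below all 3 SH medians, with overlapping ranges. The mean was 159.8 ± 12.9 CPM (SD, n = 27) in EE and 171 ± 10.1 CPM (SD, n = 27) in SH, and 24 of 27 SH mice lay above the EE median. The log2 fold change was -0.094 (SE 0.027, edgeR adjusted p = 0.0433).

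Kcnab1 (ENSMUSG00000027827, chromosome 3, 65109384 to 65378223 on the plus strand) had medians of 138 CPM (123 to 147), 142 (136 to 151) and 139 (129 to 148) in SH control, RES and SUS mice and of 131 CPM (111 to 145), 131 (126 to 140.1) and 134 (128 to 143) in the matching EE groups. As for Kcnd2, each EE median lay below each SH median and the ranges overlapped. The mean was 132 ± 6.97 CPM (SD, n = 27) in EE and 139 ± 6.88 CPM (SD, n = 27) in SH, and 23 of 27 SH mice lay above the EE median. The log2 fold change was -0.072 (SE 0.021, edgeR adjusted p = 0.0488). Kcnab1 overlaps 1 gene on its own strand, and its count is uncertain to that extent.

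**Figure D2:**
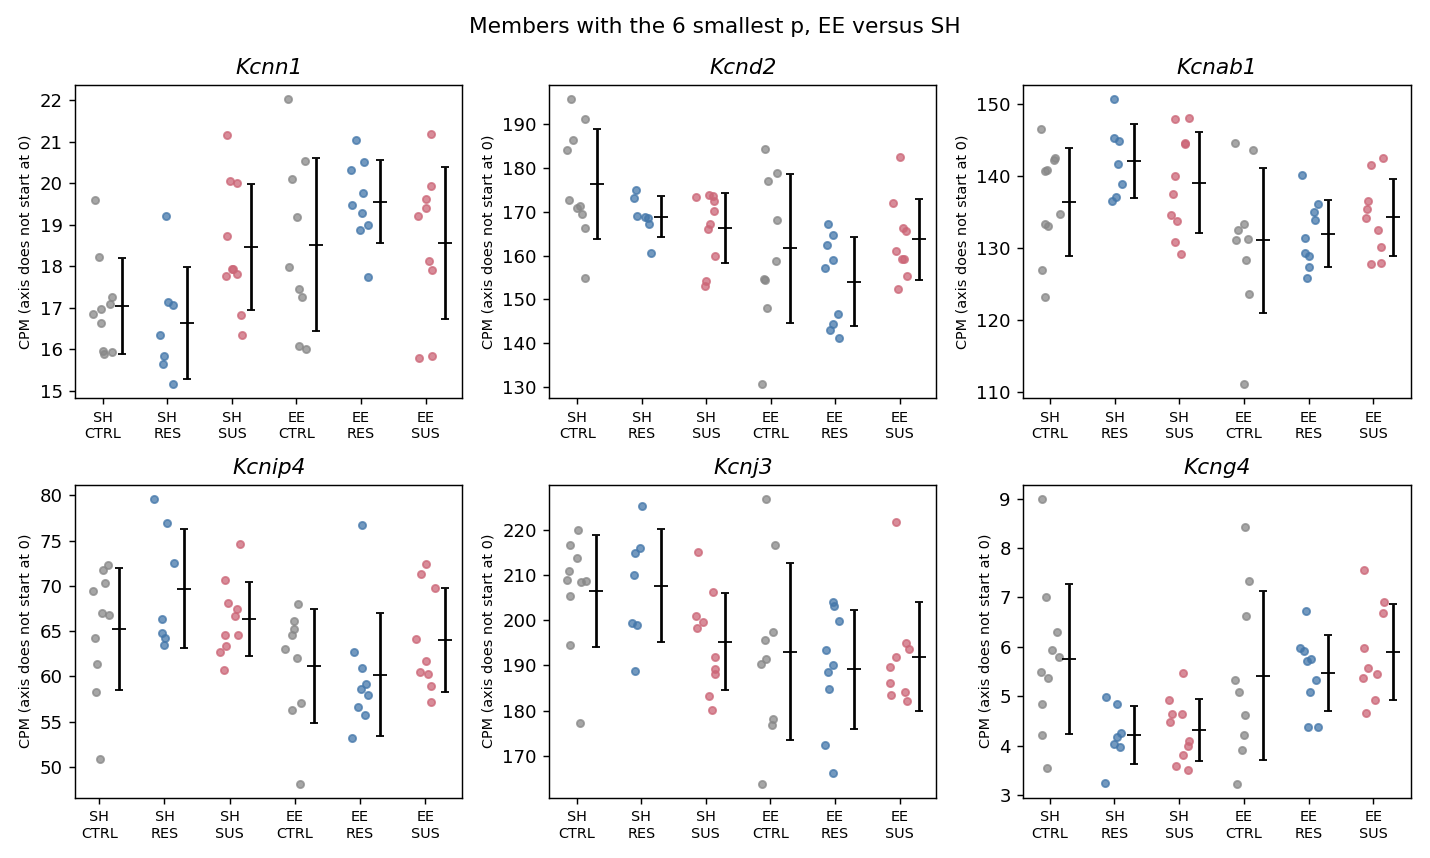
Level of the 6 members with the smallest p for EE versus SH in every mouse, in CPM normalized by TMM, with 1 point per mouse and the group mean with its SD. The groups overlap in each panel, and 23 of 27 EE mice lie above the SH median of Kcnn1 while 24 of 27 SH mice lie above the EE median of Kcnd2.

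All 3 calls lay close to the threshold. When each of the 54 mice was left out in turn, between 0 and 7 members were called, with 0 in 15 of the fits, 1 or 2 in 21 and at least 3 in 18. The share of all genes called in the same fits ran from 1.39% to 4.02%. No member was called when the mouse left out was EE control 1, 5 or 9, EE RES 1 or 8, EE SUS 1, 3 or 4, SH control 1 or 4, SH RES 1, 3 or 7, or SH SUS 8 or 10. The count was 5 or more without EE control 3 or 8, EE SUS 9, SH control 3 or 10, or SH SUS 3, the last of which gave 7. Directions were the same in all 54 fits, with log2 fold changes of 0.11 to 0.13 for Kcnn1, -0.10 to -0.084 for Kcnd2 and -0.080 to -0.064 for Kcnab1.

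Cell markers moved with housing too. In EE mice 3 of 5 dentate granule markers were lower at an unadjusted p below 0.05 (2 at an adjusted p below 0.05, median log2 fold change over the list -0.18). All 6 oligodendrocyte markers were higher by the same measure (2 at an adjusted p below 0.05, median 0.28). The granule markers summed to between 353 and 669 CPM in SH and between 299 and 698 CPM in EE mice. The oligodendrocyte markers summed to between 889 and 2179.9 CPM in SH and between 923 and 2024 CPM in EE mice, and no marker of either list was at 0 in any mouse. By unadjusted p, 3 of 5 endothelial markers (1 after adjustment, median 0.11), 3 of 6 microglia markers (none after adjustment, median 0.059) and 2 of 4 mural markers (none after adjustment, median 0.086) were higher too. Of 5 CA3 and CA2 markers 2 were higher and 1 lower, with 1 passing adjustment. With CA1, CA3 and CA2, thalamus and choroid plexus scores as covariates 3 members were called, Kcnn1, Kcnd2 and Kcnip4, and the part of the endothelial, microglia and mural markers was not tested. With scores of both lists as covariates, a fit chosen after these values were seen, 0 members were called (0.470% of all genes) and 11 had an unadjusted p below 0.05 (12.2% of all genes). The log2 fold change was then 0.066 (SE 0.031) for Kcnn1, -0.038 (SE 0.021) for Kcnd2 and -0.049 (SE 0.022) for Kcnab1, with edgeR adjusted p-values of 0.382, 0.474 and 0.341.

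At an unadjusted p below 0.05, 20 members differed between EE and SH by edgeR, against 17.6% of all genes, and limma and DESeq2 gave 20 each. Of these, 10 were higher in EE (background 8.93%) and 10 lower (8.7%). The median log2 fold change of the 75 members was -0.0014, against 0.0043 for all genes, and 37 members were above 0. After the 3 calls the smallest p-values were those of Kcnip4, whose product binds Kv4 channels (-0.12, SE 0.036, adjusted p = 0.0619), of Kcnj3 (-0.085, SE 0.027, adjusted p = 0.0734) and of Kcng4, a silent subunit of Kv2 channels (0.25, SE 0.080, adjusted p = 0.0746). Kcnip4 overlaps 24 genes on its strand, and its count is uncertain. At the ends of the range stood Kcnj12, a strong inward rectifier (0.28, SE 0.10, adjusted p = 0.106), and Kcnj4, of the same type (-0.18, SE 0.059, adjusted p = 0.0879). Over the 10 alternative fits Kcnj12 ran from 0.17 to 0.29 and Kcnj4 from -0.19 to -0.037.

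**Figure D3:**
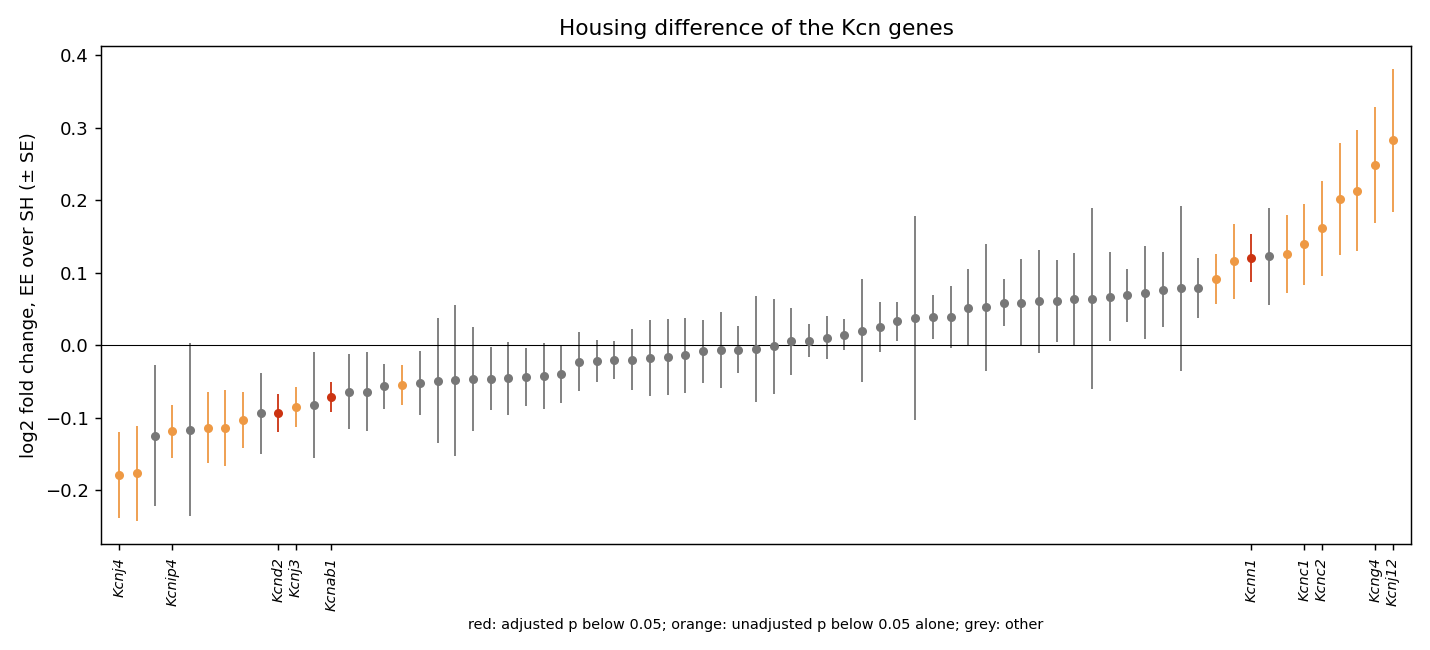
Log2 fold change of EE over SH for 73 of the 75 members, ordered by size, with 10 genes labelled and bars of 1 standard error from edgeR. Kcnn1 (0.12), Kcnd2 (-0.094) and Kcnab1 (-0.072) passed an adjusted p of 0.05, and Kcnj12 (0.28) and Kcnj4 (-0.18) lie at the ends.

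By subfamily, 4 of 4 Kcnq genes had values above 0 (median 0.065), as had 3 of 4 Kcnc genes (median 0.10), with Kcnc1 (0.14) and Kcnc2 (0.16) at an unadjusted p below 0.05. Over the 10 alternative fits, those with marker covariates among them, Kcnc2 ran from -0.0016 to 0.16 and Kcnc1 from 0.081 to 0.14. Kcnq5 ran from -0.016 to 0.20 over the same fits, so the signs of Kcnc2 and Kcnq5 were not stable. None of the 3 Kcns genes was above 0 (median -0.022). The 12 Kcnj genes had 6 above 0 and a median of -0.00035, and Kcnk had 3 of 9 above 0 (median -0.0061). The genes of the A-type complex had mixed signs, with Kcnd2 at -0.094 and Kcnip4 at -0.12 beside Kcnd3 at 0.0063, Kcnip2 at 0.069 and Kcnip3 at 0.033.

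Between the unstressed groups of the 2 housings, 0 of 75 members had an adjusted p below 0.05 with edgeR, limma or DESeq2 (background 0.00547% of all genes), and 4 with each tool had an unadjusted p below 0.05 (background 5.02%). Kcnd2 (-0.13, SE 0.045, adjusted p = 0.8597) and Kcnn1 (0.12, SE 0.056, adjusted p = 0.9601) had the signs they had over all phenotypes. The other two were Kcnmb4, a beta subunit of the large-conductance calcium-activated channel (-0.12, SE 0.044, adjusted p = 0.8597), and Kcnj3 (-0.10, SE 0.045, adjusted p = 0.976).

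Defeat in EE gave the most members at an unadjusted p below 0.05 of any contrast except housing, although none passed adjustment. For EE SUS against EE control mice, 0 of 75 members had an adjusted p below 0.05 with edgeR, limma or DESeq2 (background 0%). Without adjustment 14 by edgeR, 13 by limma and 14 by DESeq2 had a p below 0.05, against 7.9% of all genes. By edgeR 11 were higher (background 4.53%) and 3 lower (3.37%) in SUS mice. The 11 included the Kv3 channel genes Kcnc2 and Kcnc1, the beta subunit genes Kcnab2 and Kcnab3, and Kcna2, 1 of 6 Kcna genes. The rest were 1 gene each of Kcne, Kcnh, Kcnj, Kcnk, Kcns and Kcnmb. The 4 Kcnc genes ran from -0.15 to 0.42.

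Kcnc2 had medians of 124 CPM (109 to 162), 148 (124 to 227) and 182 (127 to 227) in EE control, RES and SUS mice and of 137 CPM (119 to 177), 124 (106 to 159) and 143 (109 to 212) in the matching SH groups. Both defeated EE groups held mice above the range of the EE control mice, and both overlapped it. Its log2 fold change against EE control mice was 0.42 (SE 0.11, edgeR adjusted p = 0.195) in SUS and 0.33 (SE 0.11, adjusted p = 0.538) in RES mice, which share those control mice. Kcnh7, which encodes an ERG channel, had medians of 40.7 CPM (32.6 to 62.02), 34.3 (26.04 to 48.2) and 33.9 (30.6 to 40.3) in EE control, RES and SUS mice, and its value in SUS mice was -0.31 (SE 0.10, edgeR adjusted p = 0.329). Kcnh2, of the same channel type, had medians of 12.2 CPM (10.5 to 13.2), 14.2 (10.2 to 17.3) and 15.5 (9.85 to 17.3) in that order and a value of 0.27 (SE 0.092, edgeR adjusted p = 0.424). The groups overlapped for both genes.

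**Figure D4:**
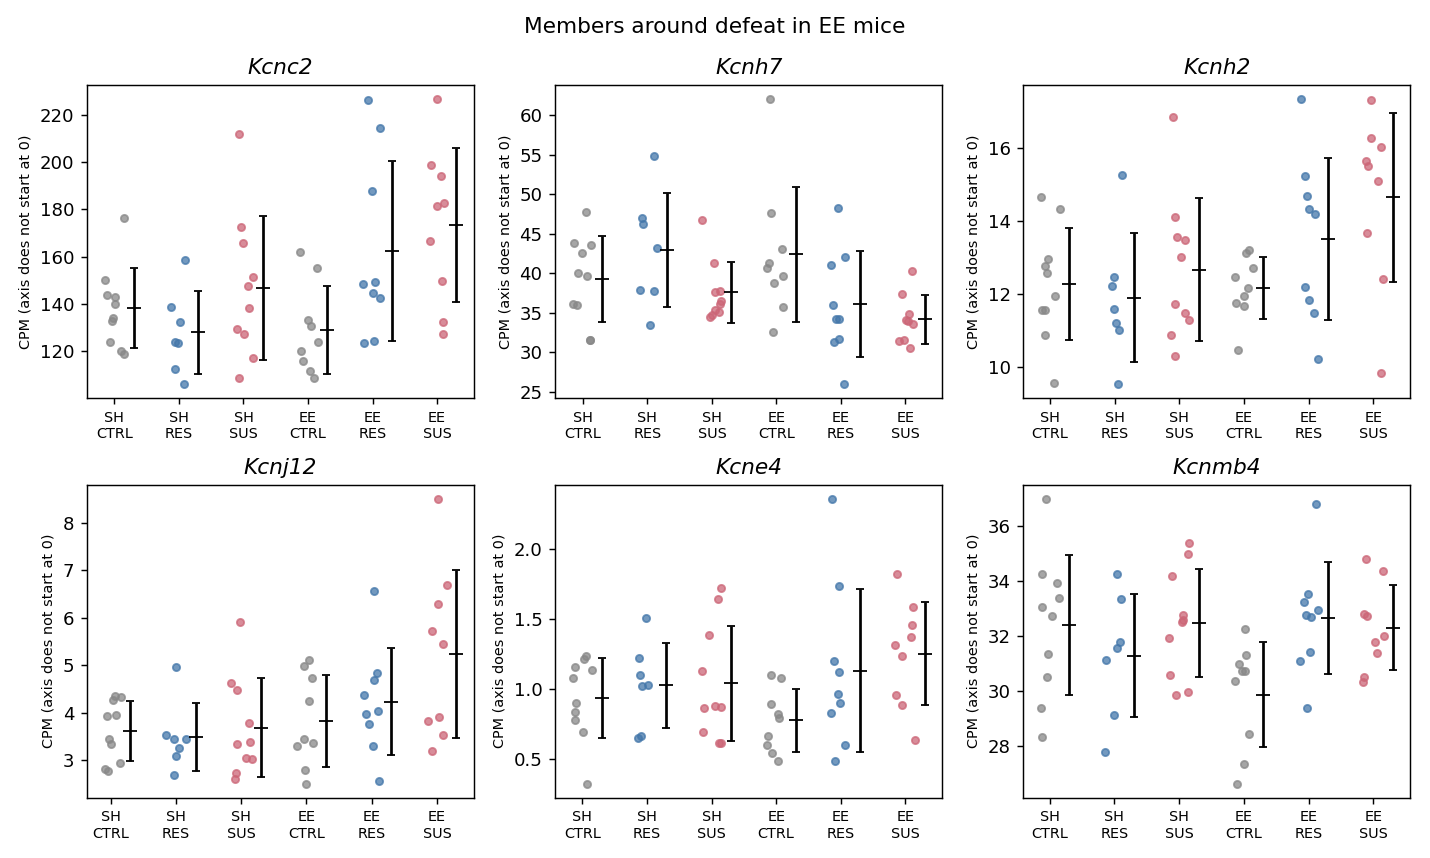
Level of Kcnc2, Kcnh7, Kcnh2, Kcnj12, Kcne4 and Kcnmb4 in every mouse, in CPM normalized by TMM, with 1 point per mouse and the group mean with its SD. Kcnc2 reached 227 CPM in EE SUS mice against 162 CPM at most in EE control mice, and the groups overlap in each panel.

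Markers of other tissue moved with this comparison. All 6 thalamus markers were higher in EE SUS than in EE control mice at an unadjusted p below 0.05 and none at an adjusted p below 0.05, with a median log2 fold change of 1.13. Their sum ran between 113 and 229 CPM in EE control, between 101 and 571 CPM in EE RES and between 145 and 509 CPM in EE SUS mice, and none was at 0 in any mouse. All 5 red cell markers were higher as well (median 1.09, none after adjustment), with sums between 60.1 and 107 CPM in EE control and between 52.4 and 441 CPM in EE SUS mice. By unadjusted p alone, 2 of 5 CA3 and CA2 (median 0.13) and 1 of 4 mural markers (-0.015) were higher. Lower were 1 of 4 CA1 (-0.38), 1 of 6 interneuron (-0.062), 1 of 5 astrocyte (-0.026) and 1 of 2 oligodendrocyte precursor markers (-0.060). With scores of CA1, CA3 and CA2, thalamus and choroid plexus markers as covariates, 1 member had an unadjusted p below 0.05, against 4.09% of all genes. This was Kcna2, which turned from 0.15 (SE 0.072) to -0.086 (SE 0.042). Kcnh2 stood at -0.0061, on the other side of 0. Kcnc2 stood at 0.025 (SE 0.049) in that fit. The part of the red cell markers in these values was not tested.

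For EE RES against EE control mice, 0 of 75 members had an adjusted p below 0.05 with edgeR, limma or DESeq2 (background 0%), and 8 by edgeR, 6 by limma and 10 by DESeq2 had an unadjusted p below 0.05 (background 7.91%). By edgeR 5 were higher (background 3.91%) and 3 lower (4%). Besides Kcnc2, the smallest p-values were those of Kcnmb4 (0.13, SE 0.045, adjusted p = 0.5399) and of the leak channel gene Kcnk10 (-0.20, SE 0.069, adjusted p = 0.553). Kcnmb4 had medians of 30.7 CPM (26.6 to 32.3) in EE control and 32.8 (29.4 to 36.8) in EE RES mice, with overlapping ranges. It shares its position with the antisense genes Kcnmb4os1 and Kcnmb4os2, and with unstranded counts its log2 fold change became -0.041. Markers moved here too, none after adjustment. By unadjusted p all 5 red cell (median 0.74), 2 of 6 thalamus (0.48) and 2 of 5 CA3 and CA2 markers (0.088) were higher. Of 5 dentate granule markers 2 were lower (median -0.24), and of 5 astrocyte markers 2 (-0.068). With the same 4 tissue scores as covariates 5 members had an unadjusted p below 0.05 (6.57% of all genes). The part of the red cell markers was not tested.

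In SH, defeat gave fewer members. For SH SUS against SH control mice, 0 of 75 passed adjustment with edgeR, limma or DESeq2 (background 0.0328%), and 2 with each tool had an unadjusted p below 0.05 (background 2.78%). For SH RES against SH control mice the count was 0 with each tool after adjustment (background 0%) and 1 without (background 3.51%). Kcng4 had the smallest p in both. Its medians were 5.65 CPM (3.55 to 8.996), 4.18 (3.25 to 4.99) and 4.29 (3.51 to 5.46) in SH control, RES and SUS mice, so that the control mice spread most and covered much of the other ranges. The log2 fold change was -0.45 (SE 0.15, edgeR adjusted p = 0.9999) in RES and -0.41 (SE 0.13, adjusted p = 0.9997) in SUS mice, with shared controls. The second gene in SUS mice was Kcnn1 (0.12, SE 0.054). Red cell markers moved with defeat in SH as well, all 5 of them higher in SUS mice with an adjusted p below 0.05 (median log2 fold change 1.44) and all 5 higher in RES mice by unadjusted p alone (median 1.02). Their sums ran from 52.2 to 107 CPM in SH control, from 97.9 to 253 CPM in SH RES and from 68.5 to 419 CPM in SH SUS mice. Of 6 choroid plexus markers 5 were lower in SH RES mice by unadjusted p (median -2.14), where sums lay between 16.5 and 23.8 CPM, against 18.8 to 973 CPM in SH control mice. With the scores of the 4 tissue lists as covariates, choroid plexus among them, Kcng4 stood at -0.39 (SE 0.14) in RES and -0.46 (SE 0.12) in SUS mice, and the part of the red cell markers was not tested. Next by p, above an unadjusted 0.05, came Kcnj8 (0.20, SE 0.10) in SUS mice and Kcnj11 (-0.18, SE 0.10) and Kcnd1 (0.18, SE 0.11) in RES mice.

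Defeated against unstressed mice over both housings gave 0 of 75 members at an adjusted p below 0.05 with edgeR, limma or DESeq2 (background 0.0438%), and 6 by edgeR, 3 by limma and 6 by DESeq2 without adjustment (background 4.81%). Kcnc2 (0.18, SE 0.069, adjusted p = 0.873), the auxiliary subunit gene Kcne4 (0.38, SE 0.15, adjusted p = 0.897) and the silent subunit gene Kcng3 (-0.16, SE 0.068, adjusted p = 0.987) had the smallest p. Kcne4 was a gene of low count, with a mean of 1.02 CPM. In this contrast all 5 red cell markers were higher with an adjusted p below 0.05 (median 1.09). By unadjusted p alone, 5 of 6 thalamus (median 0.43), 1 of 5 CA3 and CA2 (0.067) and 1 of 4 mural markers (-0.0097) were higher. Lower by that measure were 2 of 6 choroid plexus (-0.78), 2 of 5 astrocyte (-0.041), 1 of 6 interneuron (-0.033) and 1 of 6 microglia markers (-0.0029). With the scores of the 4 tissue lists as covariates, the values were 0.016 (SE 0.029) for Kcnc2, 0.23 (SE 0.13) for Kcne4 and -0.12 (SE 0.066) for Kcng3, and the part of the red cell markers was not tested. Whether the effect of defeat differed between housings was tested as an interaction, which gave 0 of 75 after adjustment with each tool (background 0%) and 5 by edgeR, 4 by limma and 5 by DESeq2 without (background 6.47%). The difference of log2 fold changes, EE minus SH, was 0.49 (SE 0.16) for Kcng4, 0.39 (SE 0.14) for Kcnc2 and 0.14 (SE 0.054) for Kcnmb4, each with an edgeR adjusted p of 0.756. Markers moved with this interaction by unadjusted p alone. Higher were 4 of 6 thalamus (median 0.78), 2 of 6 choroid plexus (1.46), 2 of 5 CA3 and CA2 (0.083) and 1 of 6 oligodendrocyte markers (0.30). With the 4 scores as covariates 5 members had an unadjusted p below 0.05 (5.25% of all genes), 2 above and 3 below 0.

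SUS and RES mice were compared within and across housings. Over both housings 0 of 75 passed adjustment with edgeR, limma or DESeq2 (background 0%), and 2 by edgeR, 2 by limma and 1 by DESeq2 had an unadjusted p below 0.05 (background 3.67%), by edgeR the M-current gene Kcnq5 (0.20, SE 0.10, adjusted p = 0.999) and Kcnab2 (0.089, SE 0.043, adjusted p = 0.999). Kcnh7 came next (-0.13, SE 0.069). Markers moved by unadjusted p alone. Higher were 2 of 5 red cell (median 0.36), 1 of 6 choroid plexus (1.20), 1 of 6 oligodendrocyte (0.18) and 1 of 5 endothelial markers (0.067). Of 4 CA1 markers 1 was lower (-0.22). With the scores of the 4 tissue lists as covariates 3 members had an unadjusted p below 0.05 (4.03% of all genes). In SH 0 passed with each tool (background 0%) and 4 with each tool had an unadjusted p below 0.05 (background 4.88%), namely Kcnq5 (0.39, SE 0.14, adjusted p = 0.934), Kcnn1 (0.15, SE 0.060), Kcnab2 (0.14, SE 0.062) and Kcns2 (-0.11, SE 0.051). Kcnq5 had medians of 102 CPM (78.4 to 117) in SH RES and 127 (99.6 to 182) in SH SUS mice, and the ranges overlapped. By unadjusted p alone, 1 of 6 choroid plexus (median 1.56) and 1 of 5 CA3 and CA2 markers (0.16) were higher in SH SUS mice. Lower were 1 of 5 dentate granule (-0.077) and 1 of 4 CA1 markers (median over the list 0.0011). With the same covariates 5 members had an unadjusted p below 0.05 in SH (4.34% of all genes). In EE 0 passed with each tool (background 0%) and 2 with each tool had an unadjusted p below 0.05 (background 3.52%), Kcnk10 (0.22, SE 0.070, adjusted p = 0.9997) and the SK2 gene Kcnn2 (-0.12, SE 0.059), ahead of Kcnd2 (0.088, SE 0.046). Kcnk10 had medians of 17.6 CPM (13.7 to 20.3) in EE RES and 20.04 (16.4 to 23.4) in EE SUS mice, again overlapping. By unadjusted p alone, 1 of 6 thalamus (median 0.51) and 1 of 6 microglia markers (0.058) were higher in EE SUS mice. Lower were 1 of 4 CA1 (-0.46), 1 of 6 interneuron (-0.060) and 1 of 4 meningeal fibroblast markers (median over the list 0.047). With the same covariates 4 members had an unadjusted p below 0.05 in EE (3.33% of all genes).

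The interaction of phenotype and housing gave 0 of 75 after adjustment with edgeR, limma or DESeq2 (background 0%), and 4 by edgeR, 5 by limma and 4 by DESeq2 without (background 4.84%). The difference of log2 fold changes, EE minus SH, was 0.31 (SE 0.10) for Kcnk10, -0.23 (SE 0.083) for Kcnn1 and 0.19 (SE 0.071) for the silent subunit gene Kcns2, each with an edgeR adjusted p of 0.977. By unadjusted p alone, 1 of 5 dentate granule markers was above 0 (median 0.22). Below 0 were 1 of 6 interneuron (-0.15) and 1 of 4 meningeal fibroblast markers (median over the list 0.17). With the scores of the 4 tissue lists as covariates 4 members had an unadjusted p below 0.05 (3.77% of all genes).

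The spread between mice of 1 group, as edgeR's biological coefficient of variation, had a median of 0.112 over the members (0.0526 to 0.288), against 0.0870 over all genes tested. The 6 most variable members were Kcne4 (0.288), Kcnj2 (0.262), Kcnh4 (0.236), Kcnj12 (0.227), Kcnj5 (0.206) and Kcnh8 (0.197). Kcnj2, the strong rectifier Kir2.1, had a mean of 31.2 CPM, while the means of the others lay between 0.738 and 4.02 CPM.

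These 6 genes were set against 6 marker scores across the 54 mice after subtracting group means, a family of 36 relations with permutation tests of 100000 resamples within groups. By Pearson's r 8 relations had an adjusted p below 0.05, and 5 by Spearman's rho. Kcnj12, the rectifier Kir2.2, was higher with a higher thalamus score (r = 0.78, permutation p = 1e-05, adjusted p = 0.00036, rho = 0.75, permutation p = 1e-05, adjusted p = 0.00036, where 1e-05 is the smallest p that these resamples can give), and r stood at 0.77 once the 2 mice with the most extreme scores were left out. Kcne4 was higher with it as well (r = 0.52, permutation p = 0.0003, adjusted p = 0.0036, rho = 0.48, permutation p = 0.00063, adjusted p = 0.00756), with r = 0.43 once the 2 were left out. Both genes were among those with an unadjusted p below 0.05 in EE SUS against EE control mice.

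Kcnj2 was lower with a higher CA3 and CA2 score (r = -0.45, permutation p = 0.00089, adjusted p = 0.00801, rho = -0.55, permutation p = 3e-05, adjusted p = 0.00054), with r = -0.52 after leaving out 2 mice. Kcnh4 was higher with a higher dentate granule score (r = 0.57, permutation p = 7e-05, adjusted p = 0.00126, rho = 0.45, permutation p = 0.00118, adjusted p = 0.0106), with r = 0.40 after leaving out 2 mice. It was lower with the CA3 and CA2 score (r = -0.44, permutation p = 0.00281, adjusted p = 0.0202, rho = -0.30, permutation p = 0.0401, adjusted p = 0.144), with r = -0.50 after the same step. The relation of Kcnj2 to the dentate granule score (r = 0.38, permutation p = 0.00795, adjusted p = 0.0358, rho = 0.34, permutation p = 0.0167, adjusted p = 0.0857) had r = 0.26 without 2 mice (permutation p = 0.0733, adjusted p = 0.24) and rests on them. The other two relations concern the choroid plexus score, whose mice fell into separate clusters of low and high sums, so no r is given. Scores and genes share libraries and depth.

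**Figure D5:**
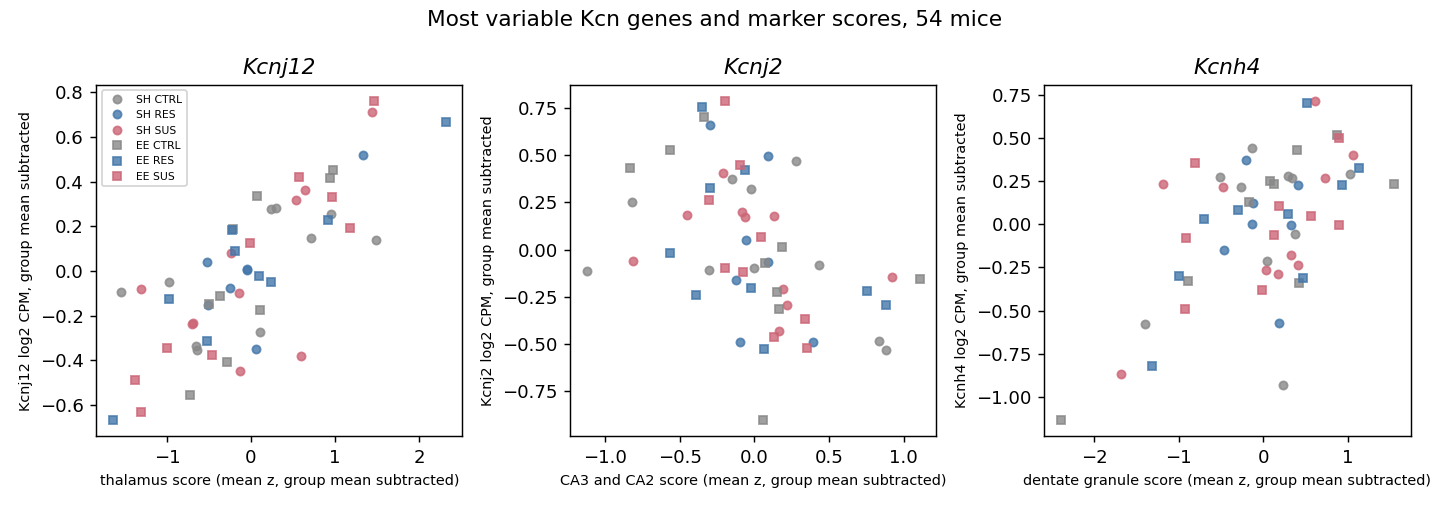
Log2 CPM of Kcnj12, Kcnj2 and Kcnh4 against the thalamus, CA3 and CA2, and dentate granule marker scores (mean z over the genes of a list), with group means subtracted and 1 point per mouse. Kcnj12 lies higher with the thalamus score (r = 0.78), Kcnj2 lower with the CA3 and CA2 score (r = -0.45) and Kcnh4 higher with the dentate granule score (r = 0.57).

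Proteins known to bind or traffic potassium channels, with the related Hcn channels, were read beside the family as a list of 22 genes, of which 19 were tested. Between EE and SH 1 of the 19 had an adjusted p below 0.05, while 4 were higher and 2 lower at an unadjusted p below 0.05, against 2.42% and 17.6% of all genes. The call was Dpp6, an auxiliary subunit of Kv4 channels, with medians of 398 CPM (372 to 430.4), 404 (386 to 423) and 397 (372 to 419.6) in SH control, RES and SUS mice and 388 CPM (367 to 426), 367 (346 to 399) and 375 (358 to 408) in the matching EE groups. Each EE median lay below each SH median, with overlapping ranges, and the log2 fold change was -0.076 (SE 0.018, edgeR adjusted p = 0.014005). This call is from the main fit alone. Values of Dpp6 with marker covariates, other tools or mice left out are not given. Dpp10, the other subunit of this kind, stood at 0.023 (SE 0.052). No gene of the list passed in the test over the 6 groups or in another contrast with edgeR, where 7 genes (background 11.1%) and between 0 and 5 genes had an unadjusted p below 0.05. In the 6-group test the smallest p-values were those of Dpp6 (adjusted p = 0.0733), Vapb (0.177), whose product helps place Kv2 channels at the cell surface, and Abcc9 (0.227), which encodes a sulfonylurea receptor of Kir6 channels.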

How the data were processed

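Per the labels and methods, total RNA of punches of single mice went into stranded libraries, and reads of 125 bases were aligned to GRCm38 with STAR. The methods name featureCounts, while the deposited files have the layout of STAR gene tables. The values are counts of read pairs per gene as the authors deposited them, without normalization. Reverse-strand counts were used, since the opposite strand held only 3.51% to 4.13% of what both strands held. Rows for unmapped, multimapping and unassigned reads, 47.1% to 54.2% of read pairs, stayed out of library sizes and tests. EE control mouse 9 entered as the sum of its 2 runs, which gives 54 mice, and the methods state fewer replicates per group without naming them. P-values rest on the spread between these mice, taken as independent. Cage was not in the model, which bears most on the comparison of housings.

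Names and coordinates came from GENCODE M21, in which 44671 identifiers matched, and promoters from RefSeq. Genes kept by filterByExpr (18283, all 75 members among them) were fitted in 1 model over the 6 groups with edgeR 4.0.16 (TMM, quasi-likelihood test, Benjamini-Hochberg adjustment over all genes, R 4.3.3), and called at an adjusted p below 0.05. Fold changes are on the log2 scale. Limma 3.58.1 (voom) and DESeq2 1.42.0 were alternatives, beside other size factors and filters, unstranded counts, 1 run of mouse 9, pairs of groups alone, the replicate block, marker covariates and each mouse left out. Scores are mean z-values of log2 CPM with a prior count of 2. The model was tested on simulated data. Python 3.11.15, SciPy 1.17.1 and matplotlib 3.10.9 were used.

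Named genes were the members called in any test, the 3 with the smallest p per contrast, the highest per kb in each subfamily (2 members are not reported here one by one, though they stay in all counts over the 75), the 2 on each side of the level threshold, the 6 with the highest variation, and the partner genes called or with the 3 smallest p over the 6 groups. Other named genes were chosen after their values were seen. Members, lists and tests were chosen with earlier results of these data known. Of the members, 14 overlap another gene on the same strand and 29 a gene on the opposite strand.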

Additional observations from a re-analysis of the deposited data

Results flagged for a closer look

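A mouse stood apart from the rest of its group in 11 of 210 sets of values (35 named members in 6 groups, Dixon's ratio past its 95% critical value), or 5.24%, where chance flags about 1 in 20. In EE SUS mice, mouse 8 was the highest for Kcna1 (274 CPM, next 241) and Kcnj8 (3.16, next 2.79), and mouse 9 was the highest for Kcnj3 (222 CPM, next 195). In SH RES mice the highest values were those of mouse 6 for Kcnd1 (4.99 CPM, next 3.45), mouse 5 for Kcns2 (63.0, next 51.7) and mouse 4 for Kcnj12 (4.95, next 3.53). EE RES mouse 1 was the highest for Kcnf1 (82.7 CPM, next 68.7), EE control mouse 2 for Kcng2 (24.9, next 20.0) and SH SUS mouse 3 for Kcnh8 (1.73, next 1.04). The lowest values that stood apart were those of SH SUS mouse 7 for Kcng2 (15.7 CPM, next 19.3) and SH control mouse 3 for Kcnh1 (80.9, next 90.2). Kcnn1, Kcnd2, Kcnab1 and Kcnc2 had no such mouse in any group.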

How the results depend on the processing

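The number of members called for EE versus SH was 3 (2.42% of all genes called), and it was 6 with DESeq2 (3.72%), 0 without a low-count filter (0.733% of 33000 genes) and 0 with dentate granule and oligodendrocyte scores as covariates (0.470%). It was 2 with unstranded counts (1.75%) or 1 run of mouse 9 (2.39%), 4 with the replicate block (3.18%), which added Kcnip4, and 3 with the 4 remaining alternatives (2.43% to 2.95%). With marker covariates Kcnip4 stood in place of Kcnab1 (adjusted p = 0.0569, edgeR), and Kcnab1 was called in 5 of 10 alternatives. Leaving out each mouse gave 0 to 7 (1.39% to 4.02%). In the test over the 6 groups it was 0, and 2 with DESeq2 (1.03% of all genes). Of the other 11 contrasts, none had a member called under any alternative or without any mouse. Kcnh2 (EE SUS versus control) turned to -0.0061 and Kcna2 to -0.086 with marker covariates, and Kcnmb4 (EE RES versus control) to -0.041 with unstranded counts. Of 36 relations to marker scores, 8 passed, and 5 without the 2 mice farthest from the median score. Whether replicate numbers pair the mice across groups was not tested. The 126 pairs of equal number had a median r of 0.026 (-0.26 to 0.44), against -0.0040 for pairs of unlike number. Among mice of other groups, 9 of 54 mice correlated best with one of their own number. Genes of low count such as Kcne4, Kcnh8 and Kcnj5 are limited by depth.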
